A study of Urocitellus parryii with 3 samples.

Results

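The miR-10, miR-99/100 and miR-125b microRNAs (miRNAs) are 5 small RNAs, of which the miR-10 pair is linked to HOX genes and the other 3 to let-7 genes in mammals: miR-10a-5p, miR-10b-5p, miR-99a-5p, miR-100-5p and miR-125b-5p. Their reads were taken from 3 small RNA libraries of arctic ground squirrel (Urocitellus parryii) liver as the distinct sequences that share their first 18 bases with one of these 5p forms, each counted once per library. This gave 1440 of 576915 distinct sequences and 14430 reads, for 5 of the 129 listed miRNAs that had any read. Each library was made from RNA mixed within a stage: 4 animals in late torpor, 4 in early arousal and 6 summer animals after reproduction, which were the non-hibernating controls. The 14 squirrels had been trapped in the wild. Per the labels, animals in late torpor and early arousal lived under 4 h of light and 20 h of dark, and post-reproduction animals under 16 h of light and 8 h of dark. Against post-reproduction, the effects of hibernation and of day length cannot be told apart. Hibernating animals had passed at least 4 torpor bouts and were killed on day 4 of one, with no word in the labels on how this fits the animals in early arousal. Ages are not given.

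A miRNA guides the silencing machinery to messenger RNAs that pair with its seed, bases 2 to 8 counted from the 5′ end. In mammals the miR-10 genes lie inside the HOX clusters, whose genes set position along the body axis, while miR-99a, miR-100 and miR-125b are made from clusters that also hold a let-7 gene, a family that marks differentiated cells. The miR-10 and miR-99/100 families are held to be related by descent, and in liver miR-99a, miR-100 and miR-125b have been linked to restraint of growth.

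The most abundant sequence of each miRNA is shown to set the seeds side by side, with the seed in capitals.
miR-10a-5p: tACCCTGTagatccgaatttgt
miR-10b-5p: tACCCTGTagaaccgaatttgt
miR-99a-5p: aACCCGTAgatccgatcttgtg
miR-100-5p: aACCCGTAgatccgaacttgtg
miR-125b-5p: tCCCTGAGaccctaacttgtga
The 5 sequences held 3 seeds. miR-10a-5p and miR-10b-5p shared one and differed by T12A, with positions counted from 1 at the 5′ end, so 21 of 22 bases were the same. miR-99a-5p and miR-100-5p shared another and differed by T16A, also with 21 of 22 bases the same. miR-125b-5p had a seed of its own. Between sequences of different seeds, 6 to 8 of 22 bases were the same at the same position.

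The reads of these miRNAs were placed by the authors on separate scaffolds of a genome whose build is not given in the sources used here. Reads of miR-10a-5p lay on the minus strand of GeneScaffold 1871, from 69046 to 69068. Those of miR-10b-5p lay on the plus strand of scaffold 146696, from 16711 to 16733. miR-99a-5p was placed on the plus strand of scaffold 143154, from 4758 to 4779, and miR-100-5p on the plus strand of scaffold 149717, from 97669 to 97690. A let-7 site followed both miR-99a-5p and miR-100-5p on the same strand. Downstream of miR-99a-5p it began 702 bases away and matched let-7c-5p reads over up to 26 bases, but let-7a-5p reads over only 18. Downstream of miR-100-5p it began 5065 bases away and matched let-7a-5p over up to 28 bases, but let-7c-5p over only 18. miR-125b-5p had 2 plus-strand loci, from 26252 to 26273 on scaffold 143156 and from 4058 to 4079 on scaffold 149721. All of its 4732 reads were placed at both, so its loci could not be counted apart. Of the let-7a-5p and let-7c-5p sites found, none lay on either scaffold of miR-125b-5p. Its grouping as let-7-linked is taken from mammals in general. No annotation of genes, exons or introns on these scaffolds was used here.

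The libraries held 5860476 placed reads in late torpor, 5611673 in early arousal and 5614441 in post-reproduction, of which 92.1 to 94.8% matched listed miRNAs. The hepatocyte miRNA miR-122-5p made up 78.6 to 80.4% of those miRNA reads, which fits a liver label, while the hepatocyte markers miR-192-5p and miR-194-5p had no placed read in any library. The 5 miRNAs described here were a small part, with 4297 reads in late torpor, 5249 in early arousal and 4884 in post-reproduction. That was 0.0773%, 0.102% and 0.0931% of the miRNA reads in the same order. Levels are given in CPM, normalised read counts relative to all miRNA reads, scaled between libraries by trimmed mean of M-values factors. With 1 library per stage there was no replicate and no test between stages. Every interval is a 95% interval that covers counting error alone, and a ratio sets 1 pooled library against another.

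The HOX-linked miR-10a-5p stood out by its level in the summer library. It had 296 reads in late torpor, 342 in early arousal and 607 in post-reproduction, or 56.4 CPM (50.2 to 63.2), 62.3 CPM (55.9 to 69.3) and 116 CPM (107.03 to 125.7). Both hibernation-season intervals lay below the post-reproduction interval and overlapped each other. In rank by reads, miR-10a-5p was number 57 of the listed miRNAs in late torpor, 55 in early arousal and 43 in post-reproduction.

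miR-10b-5p, the paralogue beside another HOX cluster, was barely detected, with 5 reads in late torpor, 5 in early arousal and 1 in post-reproduction. They correspond to 0.953 CPM (0.309 to 2.22), 0.911 CPM (0.296 to 2.13) and 0.191 CPM (0.00484 to 1.07). All 3 intervals overlapped. Of the 1256 reads of both miR-10 miRNAs over the 3 libraries, 0.876% belonged to miR-10b-5p (exact binomial interval 0.438 to 1.56). By library there were 0.0169 reads of miR-10b-5p per read of miR-10a-5p in late torpor, 0.0146 in early arousal and 0.00165 in post-reproduction. Because the pair differs at a single base, a misread miR-10a-5p could be counted as miR-10b-5p. For scale, 6 of the 54 possible single-base changes of miR-122-5p in its first 18 bases were found placed somewhere, each at 0.0126 to 0.128% of its reads, and the 1 of these that changed a T to an A was at 0.103%. Whether any of the 11 miR-10b-5p reads were such errors was not tested.

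The let-7-linked miRNAs were more abundant than either miR-10 miRNA in all 3 libraries. miR-99a-5p had 1514 reads in late torpor, 2007 in early arousal and 1627 in post-reproduction, which gave 288 CPM (274 to 303), 366 CPM (350 to 382) and 311 CPM (296 to 327). Its highest level was in early arousal, whose interval overlapped neither of the others. miR-100-5p, which carries the same seed, had 992, 1301 and 1001 reads in that order of stages, at 189 CPM (177 to 201), 237 CPM (224 to 250) and 191 CPM (180 to 204). Here too the early arousal library was highest and the other 2 overlapped. miR-125b-5p had 1490, 1594 and 1648 reads, at 284 CPM (270 to 299), 290 CPM (276 to 305) and 315 CPM (300 to 331), with the interval of late torpor just below that of post-reproduction and that of early arousal overlapping both.

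**Figure D1:**
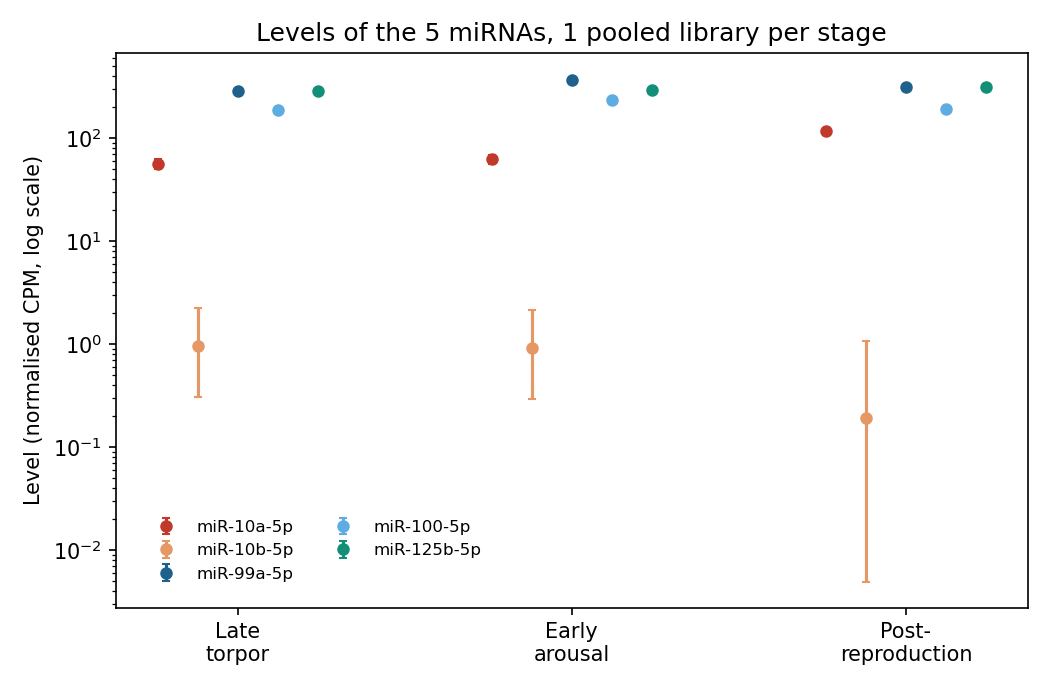
Levels of the 5 miRNAs in normalised CPM on a log scale, for the late torpor, early arousal and post-reproduction libraries, 1 library each. Points are levels and bars are exact Poisson 95% intervals, hidden by the point where they are short. miR-10a-5p stands at 56.4, 62.3 and 116 CPM, and miR-10b-5p lies below 1 CPM in all 3 libraries.

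The order of levels differed slightly between libraries. In late torpor miR-99a-5p and miR-125b-5p lay together at the top with overlapping intervals, followed by miR-100-5p, miR-10a-5p and miR-10b-5p. In early arousal miR-99a-5p lay above miR-125b-5p without overlap, and the rest followed in the same order. In post-reproduction miR-125b-5p and miR-99a-5p again overlapped at the top. These levels count reads, and all 4 abundant miRNAs had inserts of 22 nt on average.

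The contrast between the HOX-linked and the let-7-linked miRNAs can be read from their reads within a library, with no scaling. The miR-10 pair held 301 of 4297 reads of the 5 miRNAs in late torpor, 347 of 5249 in early arousal and 608 of 4884 in post-reproduction. These shares were 7.005% (6.26 to 7.81), 6.61% (5.95 to 7.32) and 12.4% (11.5 to 13.4). The hibernation-season shares overlapped each other and both lay below the summer share. Put the other way, there were 13.3 let-7-linked reads for each HOX-linked read in late torpor, 14.1 in early arousal and 7.03 in post-reproduction.

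**Figure D2:**
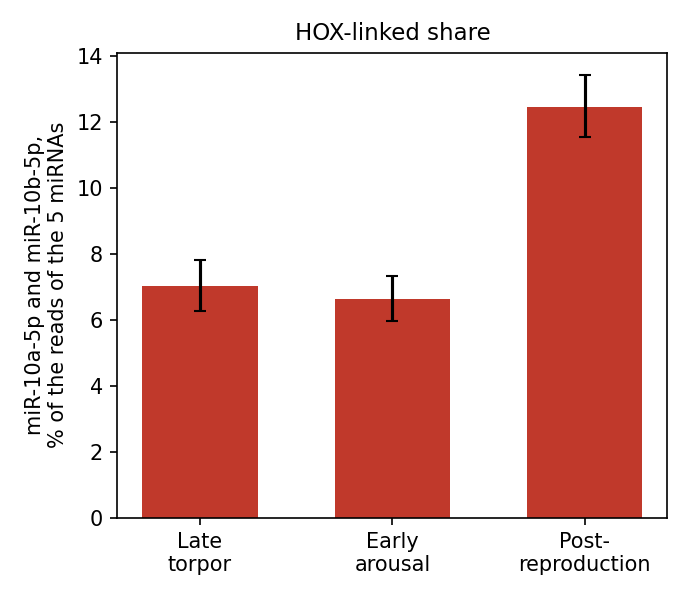
Share of miR-10a-5p and miR-10b-5p among the reads of the 5 miRNAs, in percent, with 1 bar per library and exact binomial 95% intervals. The late torpor bar stands at 7.005%, the early arousal bar at 6.61% and the post-reproduction bar at 12.4%.

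The ratio of HOX-linked to let-7-linked reads in late torpor was 0.530 times that in post-reproduction (0.457 to 0.613). In early arousal it was 0.498 times that in post-reproduction (0.432 to 0.573). Both values share the post-reproduction library. In early arousal against late torpor, which does not use that library, it was 0.940 (0.798 to 1.11), an interval that held 1. The summed level of the miR-10 pair was 57.4 CPM in late torpor, 63.2 CPM in early arousal and 116 CPM in post-reproduction. For the let-7-linked miRNAs the sum was 761, 893 and 818 CPM, so its early arousal value was the highest and its late torpor value the lowest. Almost all HOX-linked reads were miR-10a-5p. Set against each let-7-linked miRNA alone, miR-10a-5p gave 0.524, 0.492 and 0.539 in late torpor over post-reproduction for miR-99a-5p, miR-100-5p and miR-125b-5p. In early arousal over post-reproduction these values were 0.457 (0.393 to 0.531), 0.434 (0.370 to 0.508) and 0.583 (0.500 to 0.678), and in each of the 6 cases the interval lay below 1.

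In the late torpor over post-reproduction comparison, the normalised count of miR-10a-5p was 0.486 times as high (0.421 to 0.559), or -1.04 on the log2 scale. Among 86 miRNAs with at least 100 reads over both libraries it shared the lowest ratio, within counting error, with the epithelial miR-200a-3p at 0.486 (0.370 to 0.636). At a limit of 1.5-fold in either direction 1 of the 4 members with enough reads was past it, miR-10a-5p, against 10.5% of all miRNAs compared. At a limit of 2-fold it was again 1 of 4, against 3.49%. These shares hold for listed miRNAs: over all 18-base read starts with at least 100 reads, annotated or not, 292 of 580 were past 1.5-fold and 196 past 2-fold. Its place past 2-fold was narrow, since it held in 4 of 10 other ways of scaling or matching, while 1.5-fold held in 10 of 10. The let-7-linked miRNAs differed little, with miR-99a-5p at 0.927 (0.864 to 0.995), miR-100-5p at 0.987 (0.903 to 1.08) and miR-125b-5p at 0.901 (0.839 to 0.967). With reads identical to the mature form only, miR-99a-5p and miR-125b-5p turned to 1.04 each, and with 1 mismatch accepted miR-99a-5p stood at 1.003. The median over the 4 members was 0.914, and over all 86 miRNAs it was 0.971. miR-10b-5p, with 6 reads over both libraries, had a ratio of 4.98 with an interval from 0.557 to 236.

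In early arousal over post-reproduction, the ratio for miR-10a-5p was 0.537 (0.469 to 0.614), which is -0.90 on the log2 scale and the fifth lowest of 85. It was the 1 member past 1.5-fold, against 17.6% of all miRNAs compared, and 0 of 4 members passed 2-fold, against 5.88%. miR-99a-5p and miR-100-5p were on the other side, at 1.17 (1.10 to 1.26) and 1.24 (1.14 to 1.35). miR-125b-5p was at 0.921 (0.859 to 0.988), but at 1.03 with identical reads only. The member median was 1.04, and that of all miRNAs 1.01.

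In early arousal over late torpor no member passed 1.5-fold, 0 of 4 against 14.0% of 86 miRNAs, or 2-fold, against 2.33%. Ratios were 1.27 (1.18 to 1.36) for miR-99a-5p and 1.25 (1.15 to 1.36) for miR-100-5p, places 74 and 73 from the lowest of 86. For miR-10a-5p the ratio was 1.10 (0.943 to 1.29) and for miR-125b-5p 1.02 (0.952 to 1.10), and both intervals held 1 under this scaling. The median ratio was 1.18 over the 4 members and 1.01 over all miRNAs. Without the composition factor all log2 ratios here moved up by 0.17, which took miR-99a-5p to 1.43 and miR-100-5p to 1.41. It also took miR-10a-5p to 1.24 (1.06 to 1.46) and miR-125b-5p to 1.15 (1.07 to 1.24), with intervals above 1. Scaled to all placed reads, these were 1.21 (1.03 to 1.41) and 1.12 (1.04 to 1.20), so whether either interval held 1 depended on the scaling.

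**Figure D3:**
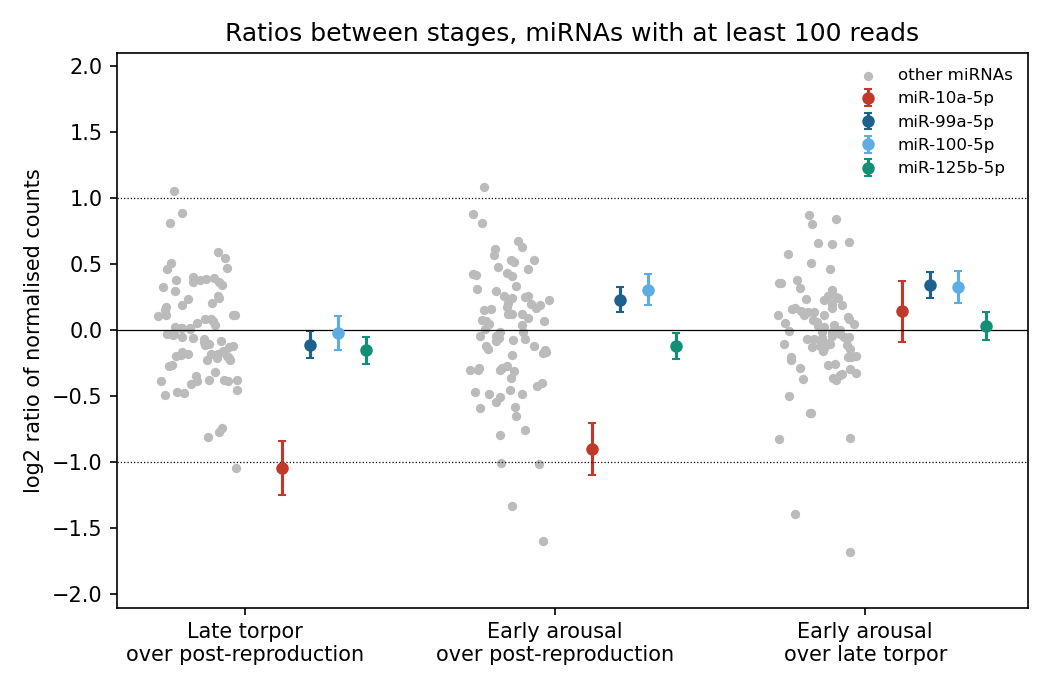
Log2 ratios of normalised counts in the 3 comparisons for miRNAs with at least 100 reads over both libraries. Grey points are other miRNAs, spread sideways for view, coloured points are members with exact conditional binomial 95% intervals, and dotted lines mark 2-fold. miR-10a-5p lies at -1.04 and -0.90 in the comparisons with post-reproduction, and the let-7-linked members lie between -0.15 and 0.34.

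The let-7-linked miRNAs did not all vary alike. Between miR-99a-5p and miR-100-5p, which share a seed but not a scaffold, the balance was steady: there were 1.53 reads of miR-99a-5p for each of miR-100-5p in late torpor, 1.54 in early arousal and 1.63 in post-reproduction. All 3 ratios of ratios for this pair had intervals that held 1, at 0.939, 0.949 and 1.01. Relative to miR-125b-5p both were higher in early arousal. Reads of miR-99a-5p per read of miR-125b-5p stood at 1.26 in early arousal, against 1.02 in late torpor and 0.987 in post-reproduction. The ratio of ratios was 1.24 (1.12 to 1.37) over late torpor and 1.28 (1.16 to 1.40) over post-reproduction. For miR-100-5p against miR-125b-5p the same values were 1.23 (1.10 to 1.37) and 1.34 (1.21 to 1.498). In late torpor over post-reproduction both intervals held 1, at 1.03 and 1.10.

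The let-7 miRNAs placed beside them were far more abundant. let-7c-5p had 11369 CPM in late torpor, 11290 CPM in early arousal and 12644 CPM in post-reproduction, which was 39.4, 30.9 and 40.6 reads for each read of miR-99a-5p. let-7a-5p had 21624, 21204 and 19455 CPM, or 114, 89.5 and 102 reads for each read of miR-100-5p. Relative to let-7c-5p, miR-99a-5p was 1.28 times as high in early arousal as in late torpor (1.19 to 1.37) and 1.32 times as high as in post-reproduction (1.23 to 1.41). miR-100-5p relative to let-7a-5p was 1.28 times as high in early arousal as in late torpor (1.18 to 1.39) and 1.14 times as high as in post-reproduction (1.04 to 1.24). let-7a-5p reads were also placed at other loci, so these values do not compare the 2 products of 1 transcript. From the remaining related cluster, miR-99b-5p, miR-125a-5p and let-7e-5p, no read was placed in any library, which in a table of placed reads does not show that they were absent from the liver.

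Summed marker miRNAs of cell types were compared with these levels. In bulk RNA, fewer cells of a type and less RNA per cell cannot be told apart. The mesenchymal, stellate and smooth muscle list, with reads for 4 of 5 miRNAs and none for miR-199a-5p, summed to 3535 CPM in late torpor, 4520 CPM in early arousal and 4320 CPM in post-reproduction. Its sum was lowest in late torpor and highest in early arousal, as was the let-7-linked sum, but its 2 abundant members differed. miR-143-3p had 1562, 2326 and 1947 CPM and set that order, while miR-199a-3p had 1968, 2181 and 2364 CPM and was highest in post-reproduction. The biliary and other epithelial list, with reads for 4 of 5 and none for miR-200c-3p, summed to 22.3, 18.6 and 44.8 CPM. It was highest in post-reproduction, as was miR-10a-5p, and most of it was miR-200a-3p at 15.8, 12.9 and 32.5 CPM. The part of these cells in the results was not tested. The hepatocyte list, with reads for 2 of 4, summed to 851543 CPM in late torpor, 740096 CPM in early arousal and 804377 CPM in post-reproduction. Against the order of either group, the erythroid list (3 of 3) was highest in late torpor, with sums of 304, 140 and 184 CPM in the same order of stages. So were the endothelial list (2 of 2) at 38.1, 32.2 and 29.6 CPM and the leukocyte list at 91.3, 64.1 and 54.7 CPM. The leukocyte list had reads for 5 of 5 only over the 3 libraries together, and most of its sum was miR-142-5p at 86.5, 61.2 and 49.2 CPM. miR-223-3p (12, 6 and 14 reads), miR-155-5p (12, 9 and 14) and miR-150-5p (0, 0 and 1) instead had most reads in post-reproduction. miR-142-3p had 1, 1 and 0.

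By the distance between log2 levels centred over the 3 libraries, among 72 miRNAs with at least 100 reads in each, the pattern most like that of miR-10a-5p was miR-152-3p, at a distance of 0.250. miR-152-3p, of the miR-148/152 family, had 561 CPM in late torpor, 487 CPM in early arousal and 979 CPM in post-reproduction. Next came miR-320a-3p at 0.303 and miR-378a-3p, made from an intron of Ppargc1b in mammals, at 0.391, both also highest in post-reproduction. miR-99a-5p lay nearest let-7d-5p at 0.0159, the joint reads of miR-103-3p and miR-107-3p at 0.0608 and miR-100-5p at 0.0687. miR-100-5p lay nearest miR-15a-5p at 0.0257, let-7d-5p at 0.0641 and miR-99a-5p. miR-125b-5p lay nearest let-7c-5p at 0.0357, miR-101-3p at 0.0426 and miR-29c-3p at 0.0518. With 3 libraries such likeness describes these libraries only, and no neighbours are given for the 11 reads of miR-10b-5p.

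The start of a miRNA sets its seed, and among the 4 abundant miRNAs miR-10a-5p had the largest share of shifted starts. The main shifted forms are shown because their seeds, in capitals, differ from the standard ones.
miR-10a-5p, 1 base later: aCCCTGTAgatccgaatttgtga
miR-125b-5p, 2 bases later: cCTGAGACcctaacttgtga
miR-99a-5p, 1 base earlier: aAACCCGTagatccgatcttgt
These shifted reads are not part of the counts above. Of the miR-10a-5p reads with any start, 13.4% began 1 base later in late torpor (46 of 344, interval 9.96 to 17.4), 17.9% in early arousal (75 of 418, 14.4 to 21.96) and 10.6% in post-reproduction (72 of 681, 8.36 to 13.1). The early arousal interval lay above that of post-reproduction, and late torpor overlapped both. The ratio of shifted to standard reads in early arousal was 1.85 times that in post-reproduction (1.28 to 2.66), and in late torpor it was 1.31 times that in post-reproduction (0.861 to 1.98). The late start thus took a larger part of a smaller total in early arousal. With shifted starts accepted, miR-10a-5p was still at least 1.5-fold lower in both hibernation-season libraries. miR-125b-5p began 2 bases later in 2.35% of reads in late torpor, 2.68% in early arousal and 1.43% in post-reproduction, from 36, 44 and 24 reads. Its early arousal over post-reproduction ratio of ratios was 1.90 (1.12 to 3.27). miR-99a-5p began 1 base earlier in 2.38%, 1.95% and 2.75% of reads, and miR-100-5p kept the standard start in 99.5 to 99.8%.

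The 3′ ends differed between the families. Among reads whose adapter was found, 88.9 to 98.0% of the reads of each of the 4 abundant miRNAs in each library, the end could be split into bases that matched the scaffold and bases that did not. Inserts of miR-10a-5p ended with no unmatched base in 94.8% of reads in late torpor, 93.7% in early arousal and 94.4% in post-reproduction. For miR-125b-5p this share was 83.8%, 83.3% and 86.0%, for miR-99a-5p 72.9%, 72.3% and 77.2%, and for miR-100-5p 63.3%, 61.7% and 67.1%. An added base equal to the next scaffold base counts as matched here, which limits the comparison between families. The miR-10a-5p form ending in gtgt was placed over all its 24 bases, so an added T there could not be seen. So miR-99a-5p and miR-100-5p had the most unmatched ends of the 4.

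The forms of miR-99a-5p and miR-100-5p with 1 added T, shown here because they end in a base that did not match the scaffold, differed between libraries.
miR-99a-5p with an added T: aACCCGTAgatccgatcttgtgt
miR-100-5p with an added T: aACCCGTAgatccgaacttgtgt
The first had 176 reads in late torpor, 203 in early arousal and 93 in post-reproduction, and the second 121, 115 and 64. Over all lengths, a single unmatched T ended 13.4% of miR-99a-5p reads in late torpor, 11.5% in early arousal and 7.30% in post-reproduction. As a ratio of ratios this was 1.97 in late torpor over post-reproduction (1.52 to 2.54) and 1.65 in early arousal over post-reproduction (1.28 to 2.12). For miR-100-5p the shares were 13.7%, 10.2% and 8.09%, with a ratio of ratios of 1.80 in late torpor (1.31 to 2.48) and 1.29 in early arousal (0.944 to 1.78). miR-125b-5p stood at 2.59%, 2.56% and 2.56%, and its ratios of ratios had intervals that held 1.

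This was not particular to these miRNAs. Over 40 miRNAs with at least 1000 reads with adapter in each library, the share of reads that were the mature form plus T was higher than in post-reproduction for 27 in late torpor and 29 in early arousal. Its median ratio to post-reproduction was 1.20 in late torpor and 1.15 in early arousal, and 9 and 8 of the 40 reached 1.5. This measure differs from the single unmatched T over all lengths given above. The 40 included miR-99a-5p, at 12.3%, 10.9% and 6.34% by this measure in late torpor, early arousal and post-reproduction. They also included miR-125b-5p, at 0.420%, 0.524% and 0.192%, but not miR-100-5p. The 3′ adapter itself begins with T, and its part in these forms was not tested. For a single unmatched A the ratio of ratios had an interval that held 1 for all 3 miRNAs in each comparison. It ended 9.70%, 11.2% and 11.9% of miR-99a-5p reads, 19.4%, 20.5% and 20.0% of miR-100-5p reads, and 6.66%, 6.42% and 5.57% of miR-125b-5p reads.

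**Figure D4:**
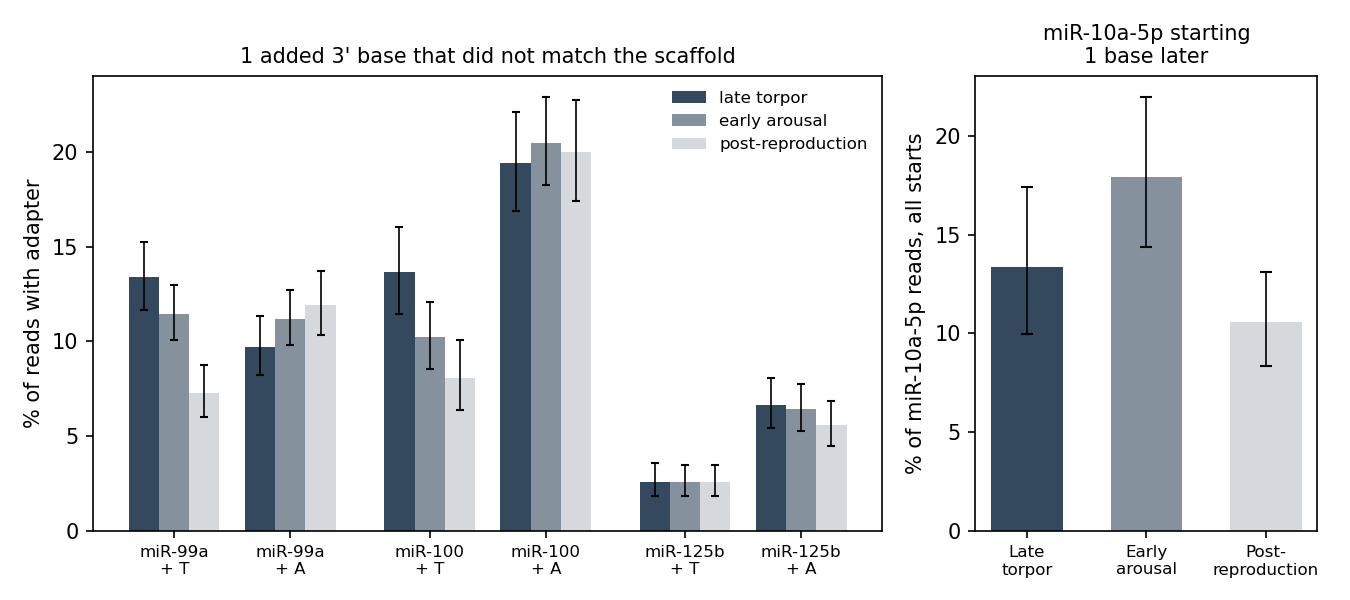
Left, percent of reads with adapter that end in 1 T or 1 A that did not match the scaffold. Right, percent of miR-10a-5p reads with any start that begin 1 base later. Bars are libraries with exact binomial 95% intervals. The added T of miR-99a-5p and miR-100-5p is lowest in post-reproduction, at 7.30% and 8.09%, and the late start of miR-10a-5p is highest in early arousal, at 17.9%.

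The mean insert was 22.1 nt for miR-10a-5p in each library, and 21.8 to 22.1 nt for the other 3 abundant miRNAs. miR-125b-5p inserts of 21 nt or shorter were 19.6% in late torpor, 23.4% in early arousal and 25.2% in post-reproduction. Its ratio of 21 to 22 nt inserts in late torpor was 0.693 times that in post-reproduction (0.557 to 0.862). For miR-99a-5p the main insert was 21 nt in early arousal, against 22 nt in late torpor and post-reproduction, and its ratio of 21 to 22 nt inserts in early arousal was 1.23 times that in late torpor (1.04 to 1.45). For miR-10a-5p the 21 nt form was relatively more frequent in early arousal than in post-reproduction, at 2.53 times (1.37 to 4.75).

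The partner arm, the other strand of the hairpin, is usually degraded, and here it was rare for every member. These are its most abundant sequences, which tell the 2 miR-125b loci apart (bases 2 to 8 in capitals).
miR-99a partner arm: cAAGCTCGcttctatgggtctgt
miR-100 partner arm: cAAGCTTGtgtctataggtctg
miR-125b partner arm, scaffold 143156: aCAAGTCAggctcttgggacct
miR-125b partner arm, scaffold 149721: aCGGGTTAggctcttgggagt
The miR-99a partner had 10 reads in late torpor, 23 in early arousal and 13 in post-reproduction, 0.894% of the 5p reads in all. The miR-100 partner had 6, 17 and 8 reads, or 0.941%. Both were most frequent in early arousal, as were their 5p arms, but from few reads. At the 2 miR-125b loci the partner arms had 13, 22 and 23 reads on scaffold 143156 and 11, 11 and 8 on scaffold 149721, so both loci had reads in every library. That of miR-10a had 0, 1 and 2 reads, and none was found for miR-10b.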

How the data were processed

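Small RNA of 18 to 30 nt was sequenced from 3 libraries of pooled liver RNA. The authors deposited 1 table of 866747 genome positions whose 4218154 entries, per the file headers, hold a sequence with its raw read count and stage as text. All values were computed from these counts by own code. Capitals mark the leading part, 18 or more of the 30 bases, that was placed. None of 418039 plus-strand positions held 2 different 18-base starts, so reads with an early error were lost or placed elsewhere. No source used here names the aligner or build.

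Each sequence was counted once per stage and matched by its first 18 bases to 167 mature miRNAs, of which 129 had reads. These miRNAs were written from general knowledge and not checked against a miRNA database. let-7a-5p and let-7c-5p share their first 18 bases and were told apart by a longer start. Near-identical miRNAs can exchange reads. Scaling used trimmed mean of M-values factors (30% trimmed on ratio, 5% on abundance) of 0.944 for late torpor, 1.06 for early arousal and 0.997 for post-reproduction. Intervals are exact Poisson for levels, exact conditional binomial (Clopper-Pearson) for ratios, exact binomial for shares and conditional exact for ratios of ratios. PCR reads carry no molecular identifiers, so these cover counting error only. Ratios needed 100 reads over both libraries to be ranked. Adapters were found with up to 1 mismatch for inserts of 18 to 25 nt. The miRNAs named are the members, their let-7 and cluster neighbours, partner arms and, for each member, the 3 nearest patterns. Marker miRNAs of cell types are named beside their lists, and miR-200a-3p and the other single markers given with values were chosen after these were seen. Members and lists were chosen with earlier results of these data known. Python 3.11.15, numpy 2.4.6, scipy 1.17.1 and matplotlib 3.10.9 were used, and the code was tested on simulated data. Sequences are read from the deposited table.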

Additional observations from a re-analysis of the deposited data

How the results depend on the processing

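The contrast of HOX-linked with let-7-linked reads was recomputed under 11 alternatives in each comparison. Of the 33 values, 29 moved by less than their counting interval. Not all were separate: reads placed at 1 position only held no miR-125b-5p, so that setting repeated the values without miR-125b-5p. These were 0.519 in late torpor over post-reproduction, 0.453 in early arousal over post-reproduction and 0.873 in early arousal over late torpor. With reads identical to the mature form, the most abundant insert of the listed length, the contrast was 0.419 in late torpor over post-reproduction and 0.371 in early arousal over post-reproduction. For miR-10a-5p that form was the 23 nt insert, with only 27, 25 and 66 reads in late torpor, early arousal and post-reproduction. The 22 nt insert shown above as its most abundant sequence had 218, 236 and 426. Without miR-10a-5p only the 11 reads of miR-10b-5p were left and it turned to 5.35 and 4.36, with intervals that held 1. miR-10a-5p stayed at least 1.5-fold lower under 10 of 10 alternatives in both comparisons with post-reproduction, at 0.439 to 0.526 in late torpor and 0.400 to 0.595 in early arousal, and at least 2-fold lower under 4 and 1 of 10. The 0.439, and the 0.400 that was the 1 value past 2-fold in early arousal, came from the few reads of the 23 nt form. With identical reads miR-99a-5p (1.04) and miR-125b-5p (1.04) turned in late torpor over post-reproduction and miR-125b-5p (1.03) in early arousal over post-reproduction. With 1 mismatch miR-99a-5p (1.003) turned in late torpor over post-reproduction. In that setting and comparison miR-10a-5p, miR-100-5p and miR-125b-5p rose too, to 0.526, 1.07 and 0.973. The contrast, which needs no scaling, stayed at 0.530. The ratio of miR-100-5p in late torpor over post-reproduction lay on either side of 1, from 0.935 to 1.10. That of miR-10a-5p in early arousal over late torpor did so from 0.910 to 1.24, and that of miR-125b-5p from 0.936 to 1.15. For miR-10a-5p the 0.910 (0.507 to 1.63) again came from the 23 nt form, and the other 9 values were above 1. The causes were not tested.

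The number of miRNAs past 1.5-fold with a minimum of 10, then 1000 reads was 18 and 4 in late torpor over post-reproduction, 27 and 7 in early arousal over post-reproduction, and 23 and 5 in early arousal over late torpor. Past 2-fold it was 6 and 1, 8 and 2, and 7 and 0. Over all 18-base read starts it was 292 of 580, 282 of 607 and 243 of 586 past 1.5-fold, and 196, 153 and 115 past 2-fold. Median-of-ratios scaling left 1 past 2-fold in late torpor over post-reproduction. In early arousal over post-reproduction 3 were past 2-fold under it, under plain miRNA-read scaling and under scaling to all placed reads. In early arousal over late torpor plain scaling gave 4. Among reads placed at 1 position only, miR-125b-5p had none, so it gave no ratio. Reads identical to the 23 nt mature form of miR-10b-5p were 0 in late torpor, 1 in early arousal and 0 in post-reproduction, so that setting gave no ratio in any comparison. Depth limits miR-10b-5p and the partner arms, whose reads were too few to compare. No paired analysis was possible because each stage has 1 library.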

Other observations

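Other miRNAs that lie in HOX clusters in mammals were hardly read. miR-196a-5p had 0 reads in late torpor, 1 in early arousal and 3 in post-reproduction, and miR-196b-5p had 1, 0 and 0. Both were looked up after the other values were seen. The miRNA with the pattern nearest miR-10a-5p, miR-152-3p, lies in the gene Copz2 in other mammals. In the RefSeq assembly mUroPar1.hap1 of this species, Copz2 is on the same chromosome as Hoxb1 with 4 protein-coding genes between them, and as Hoxb4, beside which miR-10a lies in other mammals, with 7 between. The position of the miR-152 reads was not compared with this assembly, since the build of the deposited positions is not given in the sources used here. Copz2 was picked because miR-152-3p was the nearest pattern, so the choice followed the values. No such position is given here for miR-320a-3p or miR-378a-3p, the next patterns. Whether gene position bears on these levels was not tested.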
